A study of Mus musculus with 8 samples.

Results

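The 7 genes described here encode 3 groups of proteins that are made in the embryo and in many tumours, most of which are scarce in adult tissues. They are the chromatin proteins Hmga1 and Hmga2, the RNA-binding proteins Lin28a and Lin28b, and the RNA-binding proteins Igf2bp1, Igf2bp2 and Igf2bp3. All 7 were found by symbol among the 50143 gene IDs of the count file. They were chosen by name, but with the obese against lean values of these same tumours known, so those values, and any call of the 7 genes in the fit over all genes, are given as a description. No p-value is given for the 7 genes, and nothing is supported with their calls.

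RNA was sequenced from 8 tumours of Py230, a mouse breast adenocarcinoma cell line, grown in female C57BL/6 mice in mammary gland 4. All mice, lean ones included, had been ovariectomized at 6 weeks of age. From 2 weeks after surgery, the obese group ate a high-fat diet (60% of calories as fat, 5.1 kcal/g) for 6 weeks, and its body weight rose by 35% on average. The lean group ate a regular diet (10% of calories as fat, 3.6 kcal/g) over the same time. Tumour cells were then injected and 4 tumours per group were removed at day 56. Every tumour comes from 1 cell line, and the labels neither tie a tumour to an animal nor give a batch or date, so the spread described here is that between these 8 samples.

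HMGA proteins bind the minor groove of AT-rich DNA and bend it, which changes how transcription factors assemble on chromatin. LIN28 proteins bind the precursors of let-7 microRNAs and block their maturation. IGF2BP proteins bind mRNAs, among them those of Igf2 and Myc, and protect them from decay, in part by reading the m6A mark on RNA. Mature let-7 represses mRNAs that pair with its seed, and mRNAs of all 3 groups are known let-7 targets, which ties the groups into one circuit.

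Because that circuit runs through let-7, the sequences it turns on are shown first. The mature let-7 and miR-98 microRNAs listed by RefSeq for the mouse (GRCm38.p6) all share 1 seed, bases 2 to 8. Of these, 3 are printed to show how little the family differs, with the seed in capitals.
mmu-let-7a-5p: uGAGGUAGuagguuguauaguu
mmu-let-7g-5p: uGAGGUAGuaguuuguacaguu
mmu-miR-98-5p: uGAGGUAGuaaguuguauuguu

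The seed pairs with CTACCTC in an mRNA, and an 8-base match has an A after it. The longest annotated 3′ UTR of each gene (GENCODE M21, GRCm38) was searched for these letters on the mRNA strand. One match per gene, and 2 for Hmga2, are printed with the bases before them, 5′ to 3′ on the mRNA strand and with T for U. Capitals mark the match, and the coordinates are those of its 7 bases, on the plus strand for Hmga1 and on the minus strand for the others.
Hmga1, chr17:27563292-27563298: catcttctcctctgttcacaaaCTACCTCt
Hmga2 match 1, chr10:120364225-120364231: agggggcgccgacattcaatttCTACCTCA
Hmga2 match 2, chr10:120362988-120362994: caataatccccactcctcaataCTACCTCt
Lin28a match 1, chr4:134005190-134005196: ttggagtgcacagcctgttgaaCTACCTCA
Lin28b match 1, chr10:45381023-45381029: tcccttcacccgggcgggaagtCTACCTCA
Igf2bp1 match 1, chr11:95961779-95961785: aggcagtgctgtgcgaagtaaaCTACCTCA
Igf2bp2, chr16:22059474-22059480: gagaaaaacacacaaataaaagCTACCTCA
Igf2bp3, chr6:49086788-49086794: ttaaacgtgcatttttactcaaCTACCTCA

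All 7 genes held at least 1 match, against 8.96% of the 20971 genes with an annotated 3′ UTR. Their 3′ UTRs were longer, at 1183 to 6337 bases, against a median of 954 over those genes. Per kb the 7 genes held 0.472 to 1.33 matches, against 0.0698 over all. Since mRNAs of each group are known let-7 targets, matches were likely beforehand. Hmga2, Lin28b and Igf2bp1 held 4 each, a number that 12 genes (0.0572%), Hmga2, Lin28b and Igf2bp1 among them, reached or passed. Lin28a held 2, both of 8 bases. Hmga1, Igf2bp2 and Igf2bp3 held 1 each, of 8 bases in the Igf2bp genes and of 7 in Hmga1. The first match of Hmga2 lay 58 bases after the stop codon and that of Lin28b 36 bases after it, while in Igf2bp1 the first lay at 1715 bases of a 3′ UTR of 6337. A match is a description of the letters and not evidence that let-7 acts there, and mature let-7 was not measured in these libraries.

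**Figure D1:**
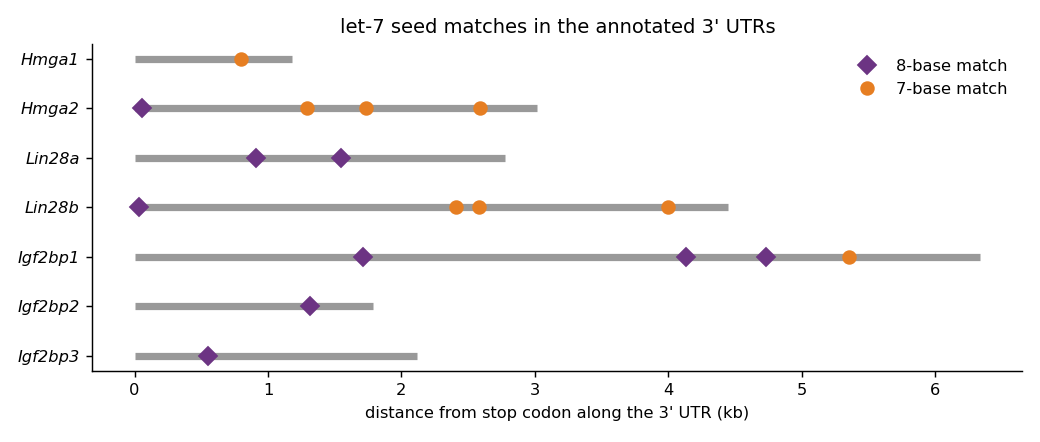
Position of each let-7 seed match along the longest annotated 3′ UTR of the 7 genes, in kb from the stop codon. Bars show the length of the 3′ UTR, diamonds 8-base matches and circles 7-base matches. Hmga2, Lin28b and Igf2bp1 hold 4 matches each, and in Hmga2 and Lin28b the first one lies close to the stop codon.

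Values are given in CPM (a count relative to the total of its library after scaling by TMM factors), obese replicates 1 to 4 before lean replicates 1 to 4. Each log2 change (obese minus lean) from the edgeR fit over all genes comes with an SE. That SE was worked back from the F statistic of the fit, as the size of the change over the square root of F. A gene is called when its adjusted p in that fit is under 0.05. Total counts ran from 25738356 to 66715063. A count of 0 leaves room for up to 3 counts, which equal 0.0450 to 0.117 CPM depending on the library, for counting error alone. Of the 7 genes 6 passed the filter on low counts, and Lin28a did not. Hmga1, Hmga2, Igf2bp1 and Igf2bp2 were called higher and 0 were called lower. Over all 14887 tested genes 59.2% were called, 30.9% as higher and 28.4% as lower. The same 4 genes had every obese tumour above every lean tumour, which held for 28.9% of tested genes. Since the genes were selected on this contrast, nothing is read from these counts. In bulk tumours, fewer cells that make an RNA and less of it per cell cannot be told apart.

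**Figure D2:**
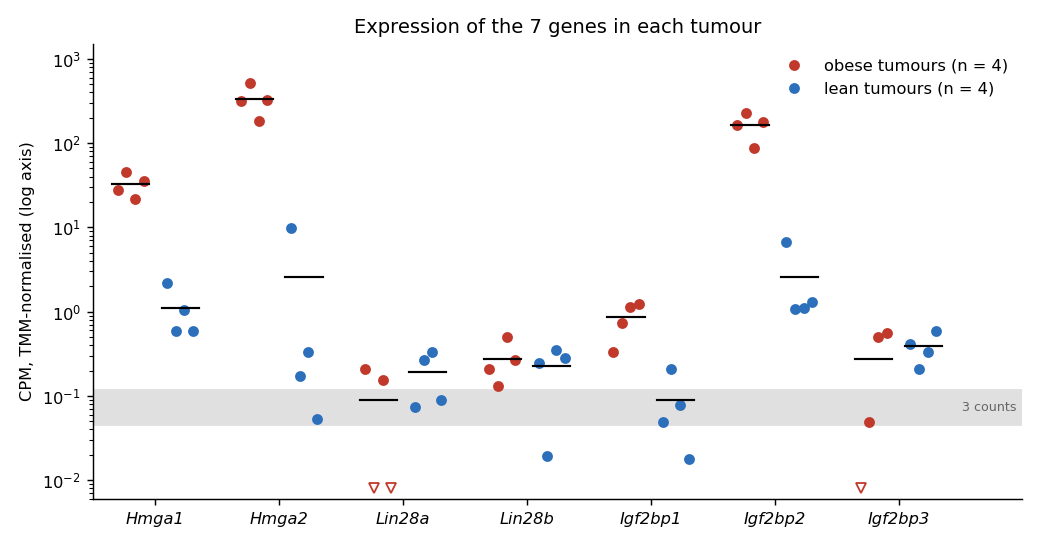
CPM of the 7 genes in each of 8 tumours on a log axis, obese tumours in red and lean tumours in blue, with group means as lines. Open triangles mark counts of 0, and the grey band is the value of 3 counts over the libraries, before TMM scaling. Hmga1, Hmga2 and Igf2bp2 lie far above the band in obese tumours, and Lin28a, Lin28b and Igf2bp3 lie near it in both groups.

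Hmga2, which helps embryonic and stem cells keep dividing, had the largest change of the 7. It stood at 316, 512, 182 and 327 CPM in obese tumours, against 9.70, 0.172, 0.332 and 0.0533 CPM in lean tumours. The groups did not overlap, and the highest lean tumour was replicate 1. The counts behind these values were 7647, 31070, 9413 and 13612 reads in obese tumours, against 395, 9, 17 and 3 in lean tumours, so lean replicate 4 was at the limit of a count of 0. The mean was 334 ± 136 CPM in obese and 2.56 ± 4.76 CPM in lean tumours (SD, n = 4 each), a ratio of means of 130.3 and a log2 change of 7.04 ± 1.68. The lean SD exceeded the lean mean, with replicate 1 far above the others, and without that tumour the log2 change was 10.82.

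Hmga1, the more widely expressed HMGA gene, was higher in each obese tumour too, at a lower level. It stood at 27.9, 45.2, 21.6 and 35.9 CPM in obese tumours, against 2.21, 0.594, 1.05 and 0.586 CPM in lean tumours. Again the groups did not overlap and lean replicate 1 was the highest lean tumour. The mean was 32.7 ± 10.2 CPM in obese and 1.11 ± 0.765 CPM in lean tumours, a log2 change of 4.88 ± 0.54 (5.46 without lean replicate 1). Hmga1 has a near-identical copy, Hmga1b, which had a count of 0 in every tumour, so adding its counts could change nothing. How reads matching both copies were counted is not given in the sources used here, so this 0 does not show that the copy is silent. AI413582, which overlaps the last bases of Hmga1 on the other strand, was called higher with a log2 change of 1.01. The kit marks strand, but the strand setting of the counting is not given in the sources used here.

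Lin28a and Lin28b, which hold back let-7 maturation, were close to the counting limit in both groups. Lin28a had 5, 0, 8 and 0 counts in obese tumours, against 3, 14, 17 and 5 in lean tumours. Lin28b had 0.206, 0.132, 0.503 and 0.264 CPM in obese tumours, against 0.246, 0.0192, 0.351 and 0.284 CPM in lean tumours. The groups overlapped for both genes, and obese replicate 3 was the highest of all 8 tumours for Lin28b. The log2 change of Lin28b was 0.30 ± 0.73, and it ran from −0.17 to 0.64 over the other settings, both signs included. The fit without a filter gave Lin28a a log2 change of −1.14 ± 1.17. Both genes rest on few reads, which limits what change could be seen.

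Igf2bp2, the member of its family that many adult tissues keep, was the family member with the most RNA. It stood at 166, 226, 88.0 and 180 CPM in obese tumours, against 6.73, 1.07, 1.09 and 1.30 CPM in lean tumours. The groups did not overlap, lean replicate 1 was the highest lean tumour and obese replicate 3 the lowest obese tumour, as for both Hmga genes. The mean was 165 ± 57.3 CPM in obese and 2.55 ± 2.79 CPM in lean tumours, a log2 change of 6.03 ± 0.80 (7.17 without lean replicate 1).

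Igf2bp1, the family member most tied to embryonic tissue, was also higher in each obese tumour, but at a far lower level. It stood at 0.330, 0.742, 1.12 and 1.25 CPM in obese tumours, against 0.0491, 0.211, 0.0781 and 0.0178 CPM in lean tumours. The counts were 8, 45, 58 and 52 in obese tumours, against 2, 11, 4 and 1 in lean tumours, so the lean values rest on few reads. The log2 change was 3.24 ± 0.73, and 4.11 without lean replicate 2, its highest lean tumour.

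Igf2bp3, made in the embryo and in many carcinomas, split the obese tumours. It had 0, 0.0495, 0.503 and 0.552 CPM in obese tumours, against 0.417, 0.211, 0.332 and 0.586 CPM in lean tumours. Obese replicates 1 and 2 were below every lean tumour and obese replicates 3 and 4 were among the higher values. The log2 change was −0.45 ± 0.93. Malsu1, which overlaps the end of Igf2bp3 on the other strand, was called higher (log2 change 0.57), with 716 to 1473 counts in obese tumours and 722 to 1089 in lean tumours.

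**Figure D3:**
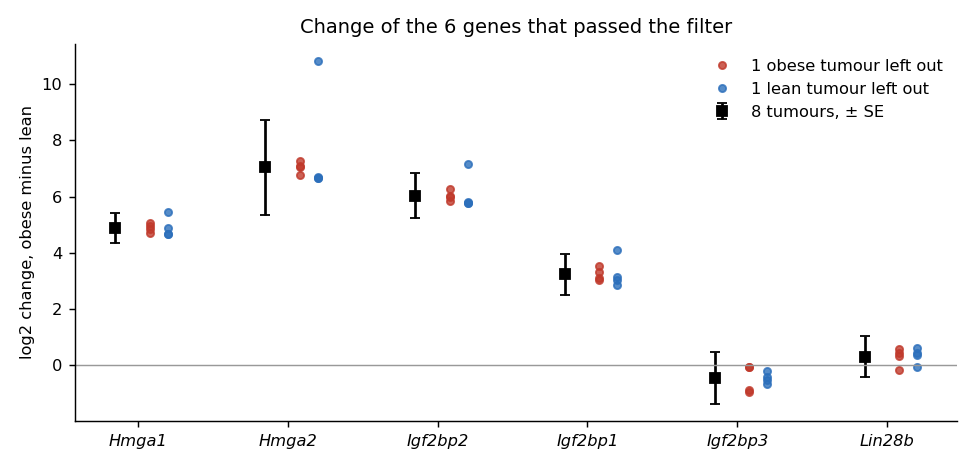
Log2 change, obese minus lean, of the 6 genes that passed the filter. Black squares with bars are the fit to 8 tumours ± SE, red circles leave out 1 obese tumour each and blue circles 1 lean tumour each. The Hmga2 change is 10.82 without lean replicate 1 and between 6.64 and 7.27 without any other tumour, and Lin28b and Igf2bp3 lie around 0.

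Levels of different genes were compared per kb of exon. In obese tumours Hmga2 averaged 49.3 CPM per kb, above 92.2% of the 14759 tested genes with a length. Igf2bp2 averaged 22.3 CPM per kb (above 80.8%) and Hmga1 15.4 CPM per kb (above 73.1%). In lean tumours the same genes averaged 0.379, 0.344 and 0.523 CPM per kb and stood above 11.3%, 10.5% and 14.0% of genes. Igf2bp1, at 0.0889 CPM per kb in obese and 0.00919 in lean tumours, stood above 6.86% and 0.183% of genes. Igf2bp3, Lin28b and Lin28a stood above at most 2.70% of genes in either group. The order of the 3 abundant genes held within each obese tumour: the ratio of Hmga2 to Igf2bp2 per kb was 2.08, 2.48, 2.26 and 1.99 and that of Igf2bp2 to Hmga1 was 1.71, 1.43, 1.17 and 1.44. In lean tumours the ratio of Hmga2 to Igf2bp2 was 1.58 in replicate 1 and 0.176, 0.332 and 0.0449 in the others. Lean replicate 1 was the lean tumour with more Hmga2 than Igf2bp2 per kb, as in each obese tumour. Across obese tumours the range of Igf2bp2 (11.9 to 30.5 CPM per kb) overlapped those of Hmga2 (26.9 to 75.6) and Hmga1 (10.15 to 21.3), while those of Hmga2 and Hmga1 did not overlap.

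Lean replicate 1 and obese replicate 3 stood apart from their groups. In lean replicate 1, the excess over the mean of the other lean tumours was 2.85% of the obese mean for Hmga2, 3.38% for Igf2bp2 and 4.49% for Hmga1. It was −6.17% for Igf2bp1, where lean replicate 1 lay below the mean of the others. Lean replicate 1 was the highest lean tumour for 199 of 242 genes (82.2%) called higher by at least 16-fold, with a median excess of 3.58% of the obese mean, and for 24.8% of all tested genes. In obese replicate 3, the level over the mean of the other obese tumours was 0.473 for Hmga2, 0.462 for Igf2bp2 and 0.593 for Hmga1, against a median of 0.649 for the genes called higher by at least 16-fold and 1.02 for all tested genes. For Igf2bp1 the ratio was 1.45. A principal component analysis took the 1000 genes that varied most over these tumours. Its first component held 88.6% of their variance. It placed obese replicate 3 (12.9) between the rest of its group (−136 to −96.5) and the lean tumours (70.2 to 93.7).

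The cell type markers moved with the groups as well. The summed CPM of 6 epithelial markers was 62.6 to 699 in obese and 1800 to 2780 in lean tumours, with the obese maximum in replicate 3 and the lean maximum in replicate 1. The 5 markers of dividing cells together gave 1140 to 1610 CPM in obese and 463 to 985 CPM in lean tumours, but did not move as one. Top2a (697.5 CPM in obese, 164.5 in lean), Cdk1 and Ccnb1 were called higher, and Pcna was called lower (118 CPM in obese, 164 in lean, edgeR adjusted p = 0.0244), each with no overlap. Pcna was not called without obese replicate 2 (adjusted p = 0.0612), obese replicate 4 (0.0694) or lean replicate 1 (0.0678), within 0.00435 to 0.0694. Mki67 was 106 CPM in obese and 157 CPM in lean tumours and was not called. For 5 T cell markers, of which Trac was at 0 throughout, the sums were 14.0 to 40.0 in obese and 52.1 to 128 CPM in lean tumours, and for 5 B cell markers 4.17 to 9.65 in obese and 22.8 to 53.0 CPM in lean tumours. Sums for macrophages (991 to 1170 in obese, 675 to 1550 in lean), endothelium (113 to 163 in obese, 118 to 262 in lean), fibroblasts (225 to 1440 in obese, 430 to 617 in lean), adipocytes (21.6 to 399 in obese, 83.4 to 369 in lean) and skeletal muscle (1.98 to 168 in obese, 41.8 to 1110 in lean) overlapped. Within the macrophage sum, however, Adgre1 (141 CPM in obese, 60.7 in lean), Cd68 (176 in obese, 66.5 in lean) and Mrc1 (122 in obese, 16.1 in lean) were called higher with no overlap. Csf1r was called lower (128 in obese, 186 in lean, edgeR adjusted p = 0.0428), but not without a filter (0.0646) or without any 1 tumour other than lean replicate 2 (0.0522 to 0.107), within 0.0106 to 0.107, and Lyz2 was not called. Fibroblast markers split likewise: Pdgfra was called higher (150.4 CPM in obese, 55.6 in lean), and Dcn (44.8 in obese, 148 in lean) and Lum (11.1 in obese, 27.8 in lean) lower, with no overlap. Marker genes were named after their values were seen. Markers of pluripotent or germ cells, with Zfp42 at 0 throughout, summed to 0.947 to 1.32 CPM in obese and 1.35 to 2.40 CPM in lean tumours. Of these, Ddx4, a germ cell helicase, was called higher with no overlap (0.611 CPM in obese, 0.179 in lean, log2 change 1.75, edgeR adjusted p = 0.0044), Nanog was called lower and Dppa3 (0.559 in obese, 0.502 in lean) was not called. The part of these cell types in the values of the 7 genes was not tested.

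RefSeq lists a promoter window, 250 bases before to 50 bases after the start, for 6 of the genes (GRCm38.p6), with more than one start for Hmga1. Windows of the 3 abundant genes are printed because these genes moved together. Capitals mark GGGCGG on either strand (read as CCGCCC on the other), a sequence bound by Sp factors. Hmga2 and Igf2bp2 lie on the minus strand and Hmga1 on the plus strand.
Hmga2 promoter, chr10:120476420-120476719: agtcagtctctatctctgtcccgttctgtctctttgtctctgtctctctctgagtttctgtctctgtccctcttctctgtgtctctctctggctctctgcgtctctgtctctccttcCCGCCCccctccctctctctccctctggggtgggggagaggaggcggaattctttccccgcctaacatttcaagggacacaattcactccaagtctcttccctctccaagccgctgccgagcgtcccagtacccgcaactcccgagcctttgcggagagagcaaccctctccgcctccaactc
Igf2bp2 promoter, chr16:22163250-22163549: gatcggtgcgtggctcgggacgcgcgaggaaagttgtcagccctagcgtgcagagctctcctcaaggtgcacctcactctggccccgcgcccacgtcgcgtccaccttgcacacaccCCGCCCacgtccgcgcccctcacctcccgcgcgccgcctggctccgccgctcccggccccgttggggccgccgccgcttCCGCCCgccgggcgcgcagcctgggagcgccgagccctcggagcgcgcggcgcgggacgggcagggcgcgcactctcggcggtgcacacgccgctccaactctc
Hmga1 promoter, chr17:27556324-27556623: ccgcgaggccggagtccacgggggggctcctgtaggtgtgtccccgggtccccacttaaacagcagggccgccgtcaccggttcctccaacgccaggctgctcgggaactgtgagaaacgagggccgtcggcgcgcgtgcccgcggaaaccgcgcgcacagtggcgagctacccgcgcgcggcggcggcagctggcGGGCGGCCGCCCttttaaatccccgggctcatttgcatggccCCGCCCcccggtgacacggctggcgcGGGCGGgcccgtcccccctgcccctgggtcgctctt

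GGGCGG occurred 1 time in the window of Hmga2, 2 times in that of Igf2bp2 and 4 times in that of Hmga1, and at least once in 35.7% of 32851 windows. TATAAA (in 13.6% of windows), CCAAT (37.4%), CACGTG (7.15%) and TGANTCA (7.81%), searched on both strands, had no match in these 3 windows. The Hmga2 window was 69.0% C or T on the coding strand, more than in 99.6% of windows, and the Igf2bp2 and Hmga1 windows were 57.0% and 52.3%. The letters describe the windows, and no binding was measured.

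The genes whose pattern over the 8 tumours was most like that of a member were ranked by the root mean square (RMS) difference of centred log2 CPM. For Hmga2 they were Pnma5 (RMS 0.57), Tex11 (0.62) and Tex19.1 (0.64), the last pair known from male germ cells, against a median of 4.94 over 12370 genes. Tex11 averaged 52.1 ± 11.4 CPM in obese and 0.351 ± 0.650 CPM in lean tumours. For Igf2bp2 they were Crmp1 (RMS 0.27), Esx1 (0.31) and Best3 (0.33). For Hmga1 they were Nrp2 (0.32), a semaphorin and VEGF co-receptor, Syne3 (0.34) and Emilin2 (0.35). Lin28b was closest to Batf2 (0.37), Ifit3 and Irf7, genes of the interferon response, and Igf2bp3 to Lilra5 (0.47), but both members rest on few counts. The measure ranks likeness over 8 tumours that differ mainly by group.

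Genes near Hmga2, Igf2bp2 and Hmga1 did not all move with them. Over all tested genes 30.9% were called higher and 28.4% lower. Within 1 Mb of Hmga2, 10 genes were tested, of which 4 were called higher and 1 lower (median log2 change −0.19). Around Igf2bp2, 2 of 22 were called higher and 11 lower (median −0.56), and around Hmga1, 13 of 34 were called higher and 6 lower (median 0.36). Of the antisense genes annotated over Hmga2, 1700006J14Rik was at 0 in every tumour, and 9230105E05Rik had 0 counts in every obese tumour and 8, 1, 0 and 4 in lean tumours.

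Related genes were taken in lists by role. Over all tested genes 30.9% were called higher and 28.4% lower, and no list was tested against these shares. For 16 genes of let-7 and microRNA processing, edgeR's quasi-likelihood test called 7 higher and 2 lower, with a median log2 change of 0.47 against −0.04 over all genes. Xpo5, which exports microRNA precursors from the nucleus, rose to 146 ± 27.6 CPM in obese tumours, against 43.5 ± 4.91 CPM in lean tumours (log2 change 1.75 ± 0.17, adjusted p = 0.000287). Ago2, the slicing Argonaute, was 98.7 ± 45.4 CPM in obese and 33.4 ± 7.43 CPM in lean tumours (1.56 ± 0.33, adjusted p = 0.00528). Khsrp, which aids let-7 maturation, rose by a log2 change of 0.80, and Prkra, a Dicer partner, fell to 20.2 ± 6.51 CPM in obese tumours, against 42.3 ± 2.39 CPM in lean tumours (−1.07 ± 0.21, adjusted p = 0.00455). Ago3 was called higher (0.91), a call that ended without lean replicate 3 (edgeR adjusted p = 0.0576) and without lean replicate 4 (0.0514), within a range of 0.0036 to 0.0576. Tut4 and Tut7, which tail let-7 precursors together with LIN28, had log2 changes of 0.06 and 0.20 and were not called.

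Trim71, a let-7 target first known from worm development as lin-41, lies outside the abundance limit of the naming rule and was chosen after its values were seen. It had 56, 183, 48 and 90 counts in obese tumours, against 1, 0, 0 and 0 in lean tumours. With the reads of each group pooled, the ratio of obese to lean was 424, with a 95% counting interval of 75.7 to 16800. That interval covers counting error alone and leaves out the spread between tumours. Lean replicate 1 again held the single lean read, and obese replicate 3 was the lowest obese tumour at 0.928 CPM. Its 3′ UTR held 4 let-7 matches, all of 8 bases.

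Of 17 let-7 precursor and host genes 15 were in the file and 3 were tested, with 0 called by edgeR, DESeq2 or limma-voom and 1, Mirlet7d, at an unadjusted edgeR p under 0.05. Each of 3 other scalings called 1 lower, and leaving out obese replicate 1, obese replicate 3 or lean replicate 2 gave 1, 2 and 1 lower. Mirlet7d had 43 counts in obese and 119 in lean tumours in all (log2 change −1.28 ± 0.49, adjusted p = 0.0524). The hosts Huwe1 (204 ± 59.3 CPM in obese, 250.0 ± 44.1 CPM in lean) and Wdr82 (113 ± 9.44 in obese, 95.4 ± 15.4 in lean) were not called, though Wdr82 was without lean replicate 2 (adjusted p = 0.0319, range 0.0319 to 0.808). These libraries do not report mature microRNAs.

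Among 27 tested let-7 targets outside the 7 genes, 16 were called higher and 3 lower, against 30.9% and 28.4% of all tested genes. Their median log2 change was 0.90. Myc, a driver of growth, rose to 571 ± 172 CPM in obese tumours, against 89.9 ± 10.5 CPM in lean tumours (2.67 ± 0.25, edgeR adjusted p = 0.000269). Cdk6, a cyclin-dependent kinase of G1, was 15.0 ± 5.63 CPM in obese and 1.94 ± 0.199 CPM in lean tumours (2.95 ± 0.31, adjusted p = 0.000354). Arid3a rose by a log2 change of 2.85 and Igf1r, the IGF receptor that Igf2 activates, by 3.06. Il6 rose by 3.11, but by 1.94 without obese replicate 1. The list reads by reports of targeting in any species: in the mouse 3′ UTRs searched here Myc, Cdk6 and Il6 held 0 matches, Arid3a and Igf1r 2 each.

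The 14050 tested genes with an annotated 3′ UTR, the 7 genes left out, were therefore also grouped by the number of matches. With 0 matches 31.2% of 12610 genes were called higher and 28.4% lower, and with 1 match 32.4% of 1269 higher and 27.5% lower. With 2 matches 38.0% of 150 were called higher and 20.7% lower. With 3 or more, 10 of 21 (47.6%) were called higher, among them Trim71, Hic2 and Ago2, and 2 lower. The 10 also included D10Wsu102e and D1Ertd622e, whose listed 3′ UTRs were far longer, at 122583 and 39397 bases. The median 3′ UTR grew along with the matches, at 1023, 2179, 3521 and 4453 bases. Among 1592 genes with 0 matches and a 3′ UTR of at least 3000 bases, 36.2% were called higher and 24.2% lower, close to the shares with 2 matches. No test was made of these shares, and the part of length in them was not tested. Nr6a1, with 8 matches the highest number in any gene, had 11.0 ± 4.32 CPM in obese and 10.0 ± 4.16 CPM in lean tumours and was not called.

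**Figure D4:**
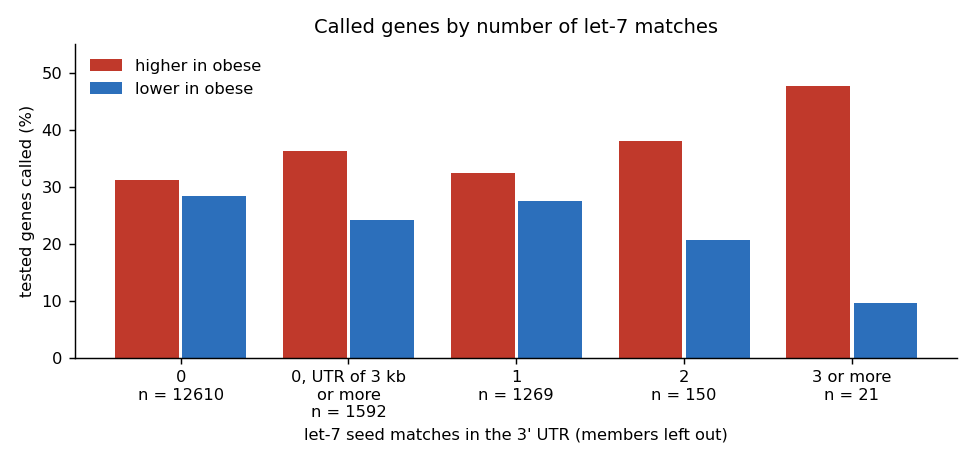
Share of tested genes with an annotated 3′ UTR called higher (red) or lower (blue) in obese tumours by edgeR, by number of let-7 seed matches in the 3′ UTR, without the 7 genes. The second pair of bars is the part of the first with a 3′ UTR of at least 3 kb. The share called higher is 31.2% at 0 matches and 47.6% at 3 or more, where the bar rests on 21 genes.

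Of 12 genes reported under HMGA control, 5 were called higher and 3 lower, against 30.9% and 28.4% of all tested genes. Ccna2, the cyclin A gene that Hmga2 is reported to derepress, rose to 294 ± 49.9 CPM in obese tumours, against 88.5 ± 32.0 CPM in lean tumours (log2 change 1.73 ± 0.26, edgeR adjusted p = 0.00142). Cdc25b, a phosphatase of mitotic entry, rose by 1.64. Snai2, a repressor of epithelial genes that HMGA2 is reported to raise, fell to 1.14 ± 0.852 CPM in obese tumours, against 35.1 ± 40.2 CPM in lean tumours (−4.92 ± 1.0, adjusted p = 0.00506, and −3.73 without lean replicate 2). Cdkn2a, a cell cycle inhibitor that HMGA2 is reported to repress, fell to 1.46 ± 2.54 CPM in obese tumours, against 35.3 ± 15.3 CPM in lean tumours (−4.58 ± 1.33, adjusted p = 0.0196). Without obese replicate 3 its change was −7.44. Twist1 was called higher (1.18), but by edgeR no longer without obese replicate 4 (adjusted p = 0.0501), lean replicate 1 (0.0563) or lean replicate 4 (0.0596), within 0.00603 to 0.0596.

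Of 12 tested mRNAs reported as IGF2BP-bound, 8 were called higher and 3 lower, against 30.9% and 28.4% of all tested genes. The number called higher was 5 without obese replicate 2, lean replicate 1, lean replicate 3 or lean replicate 4. Besides Myc, Cd44, a hyaluronan receptor, rose by a log2 change of 1.95 and Gli1, the hedgehog effector, by 2.45. H19 and Igf2, imprinted RNAs long known to be bound by the family, were lower. H19 fell to 2.18 ± 2.32 CPM in obese tumours, against 18.9 ± 3.59 CPM in lean tumours (−3.10 ± 0.83, edgeR adjusted p = 0.0142, and −4.03 without obese replicate 3). Igf2, named after its values were seen, had 0.124, 0.0824, 0.155 and 0.336 CPM in obese tumours, against 0.467, 4.92, 0.937 and 0.799 CPM in lean tumours (−3.34 ± 0.89, adjusted p = 0.0137, and −2.06 without lean replicate 2).

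For 18 m6A writers, erasers and other readers, 12 were called higher and 0 lower, against 30.9% and 28.4% of all tested genes. However, 5 were higher with upper quartile factors or library size alone and 7 without lean replicate 4. Those 2 scalings shift the median of all genes by −0.21 and −0.19. Ythdf2, a reader that sends m6A mRNAs to decay, rose to 87.4 ± 12.5 CPM in obese tumours, against 37.7 ± 2.71 CPM in lean tumours (1.21 ± 0.13, edgeR adjusted p = 0.000398). The eraser Alkbh5 rose by 1.02, the writer subunits Cbll1 and Wtap by 1.01 and 0.74 and the reader Ythdf1 by 0.73. The catalytic subunit Mettl3 (0.26) was not called.

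Other high mobility group genes were mixed in direction. Of 9 tested, 4 were called higher and 3 lower (median log2 change −0.24), against 30.9% and 28.4% of all tested genes. The number called higher was 1 with upper quartile factors or library size alone. It was 2 without obese replicate 4 or without lean replicate 1, 3 or 4. Hmgn2, a nucleosome-binding protein, fell to 16.7 ± 14.9 CPM in obese tumours, against 75.7 ± 12.9 CPM in lean tumours (−2.18 ± 0.56, edgeR adjusted p = 0.0121, and −3.00 without obese replicate 3). Hmgn3 fell by 1.52 on the log2 scale and Hmgn5 rose by 0.71. Hmgb1 (0.60) and Hmgb3 (0.57) were called higher, but not with upper quartile factors (edgeR adjusted p = 0.0741 and 0.107) or library size alone (0.0777 and 0.104), within ranges of 0.006 to 0.0777 and 0.0147 to 0.107. The Hmgb3 call also ended without obese replicate 4 (0.0553), lean replicate 1 (0.0579), lean replicate 3 (0.0599) or lean replicate 4 (0.0653).

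From a list of 23 other oncofetal and stem cell genes, 11 were tested (median log2 change −0.46). Of these, 3 were called higher and 5 lower, against 30.9% and 28.4% of all tested genes. Those higher were Trim71, Plag1 and Afp, and those lower Nanog, Igf2, H19, Tpbg and Gpc3. Plag1, a zinc finger factor that activates Igf2 and that Hmga2 is reported to raise, had 1.61, 24.4, 2.34 and 10.7 CPM in obese tumours, against 0.0982, 0.0767, 0.0781 and 0.0178 CPM in lean tumours. Its log2 change was 7.14 ± 1.13 (edgeR adjusted p = 0.00176), and 6.15 without obese replicate 2. Plag1 was named after its values were seen. Afp, named likewise, was 3.93 ± 2.69 CPM in obese and 0.461 ± 0.580 CPM in lean tumours (3.10 ± 1.01, adjusted p = 0.0297). Afp was no longer called by edgeR without obese replicate 1 (adjusted p = 0.0583) or lean replicate 2 (0.0663), 3 (0.0592) or 4 (0.0736), within 0.00303 to 0.0736, and its change was 4.48 without lean replicate 1.

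Nanog, a pluripotency factor, also named after its values were seen, had 1 count in obese and 101 in lean tumours. With the reads of each group pooled, the ratio was 0.0111 (95% counting interval 0.000279 to 0.0635). This interval, too, leaves out the spread between tumours. The surface proteins Tpbg and Gpc3 fell by 2.52 and 2.26 on the log2 scale. Tpbg was no longer called by edgeR without obese replicate 1 (adjusted p = 0.0515) or 4 (0.0592), within 0.000553 to 0.0592, and its change was −3.68 without obese replicate 3. The Gpc3 call ended with limma-voom (adjusted p = 0.0503) and without obese replicate 1 (0.0601), obese replicate 2 (0.0633), lean replicate 2 (0.0602, change −1.65) or lean replicate 3 (0.0581), within 0.00232 to 0.0633. Pou5f1, the partner of Nanog, had 0 counts in obese and 11 in lean tumours.

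**Figure D5:**
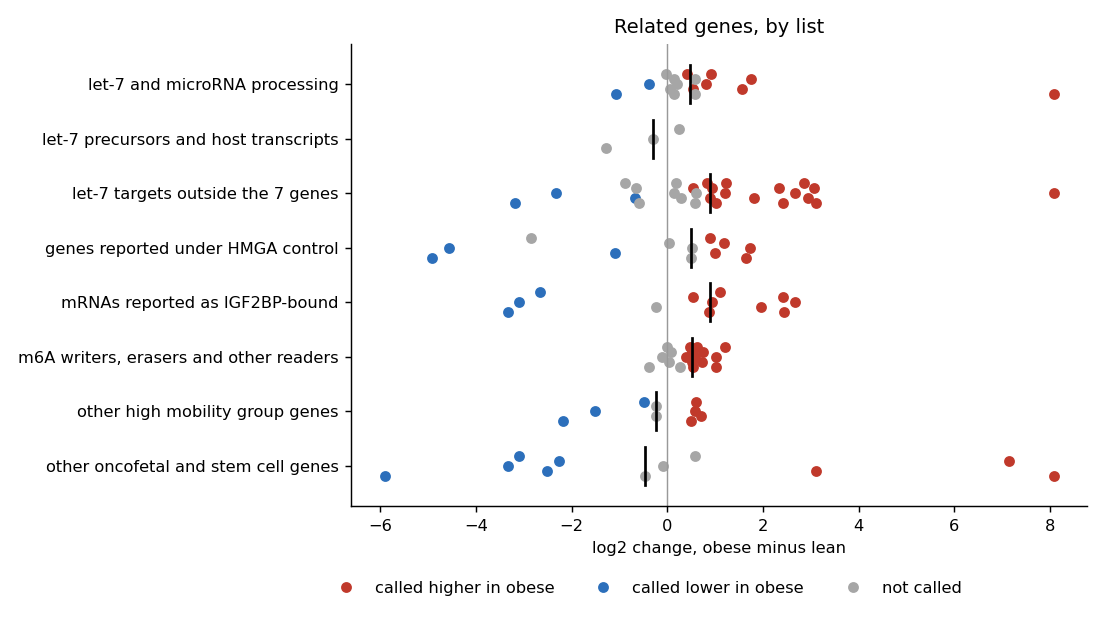
Log2 change, obese minus lean, of each tested gene of 8 lists of related genes. Red points were called higher by edgeR, blue points lower and grey points were not called, and black bars are list medians. Trim71, in 3 lists, is the point at 8.08, a fitted value that rests on 1 lean read. The oncofetal and stem cell list spreads to both sides. The m6A list holds 12 of 18 genes called higher, against 30.9% of all tested genes.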

How the data were processed

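Per the labels' protocols, RNA of 8 snap-frozen tumours was extracted with a column kit and made into stranded TruSeq libraries. The authors deposited 1 file of raw counts per Ensembl gene. The submitters' processing notes name STAR 2.5.2b, cutadapt 1.12, CASAVA 1.8, HTSeq, bcl2fastq 2.18.0.12 and the build mm10. The annotation and strand setting of the counting are not given in the sources used here. Total counts were 25738356 to 66715063 per tumour. Symbols, exon lengths and coordinates came from GENCODE M21 (GRCm38, counted from 1), microRNA and promoter sequences from RefSeq.

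Genes were filtered with filterByExpr (minimum count 10, minimum total 15), scaled by TMM and compared by the robust quasi-likelihood F test of edgeR 4.0.16 (R 4.3.3), two-sided, with Benjamini-Hochberg adjustment over 14887 genes at 0.05. The design has 4 obese and 4 lean tumours with no covariate. Each p-value sets the difference between the groups against the spread between these samples within a group. The steps were tested on simulated data in which few genes were changed, so they were not checked for a change as broad as the one here. Other settings were DESeq2 1.42.0, limma-voom (limma 3.58.1), other scalings and filters, and leaving out each tumour. Those for marker genes and for genes grouped by let-7 matches were added after the data were seen. The 7 genes and all lists were chosen with earlier results of these data known. Named genes were up to 5 called genes per list with the largest log2 change at a mean log2 CPM of at least 0 (or the 2 most abundant where 0 were called) and the 3 genes most alike per member (prior count 2). Some of them are not reported here, and the text says where a gene was named after its values were seen.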

Additional observations from a re-analysis of the deposited data

Results flagged for a closer look

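In groups of 4 tumours, a value was marked when its gap to the nearest tumour took up more of the group's range than Dixon's 95% limit allows. Over 120 groups (60 genes) this marked 13 values, and chance marks about 1 in 20 groups.

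Lean replicate 1 stood above the other lean tumours for Hmga2 (9.70 CPM), Igf2bp2 (6.73 CPM), Afp (1.33 CPM) and Trim71 (0.0246 CPM, a single read). Obese replicate 3 stood below the other obese tumours for Xpo5 (105 CPM) and above them for Prkra (29.8 CPM), Cdkn2a (5.26 CPM) and Nanog (0.0193 CPM, a single read). Lean replicate 2 stood above the other lean tumours for Xpo5 (50.9 CPM), Cbll1 (25.9 CPM), Mki67 (268 CPM) and Igf2 (4.92 CPM). Obese replicate 1 stood above the other obese tumours for Il6 (9.54 CPM).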

How the results depend on the processing

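Hmga1, Hmga2, Igf2bp1 and Igf2bp2 kept their direction in each setting that tested them. For these genes every obese tumour was above every lean tumour, so leaving out 1 tumour could hardly reverse the direction. The genes were also chosen with these values known, so nothing is supported with it. With limma-voom the log2 change of Hmga2 was 9.61. Leaving out 1 tumour each gave 6.64 to 10.82 for Hmga2, 5.77 to 7.17 for Igf2bp2 and 2.87 to 4.11 for Igf2bp1. Over all settings Hmga1 ran from 4.66 to 5.46 and Igf2bp3 from −1.34 to −0.07, while Lin28b changed sign without being called. A filter of 1 CPM in 4 tumours removed Lin28b, Igf2bp1 and Igf2bp3. Over all genes 3612 to 4771 were called higher and 3136 to 5145 lower. Counts called lower moved by over 1.5 times from 3 to 5 let-7 targets (upper quartile factors, library size, DESeq2, limma-voom, without obese replicate 1), from 2 to 1 microRNA processing genes in 8 of 15 settings, from 0 to 1 m6A genes in 7 of 15, from 3 to 1 IGF2BP-bound mRNAs with the filter of 1 CPM, and from 5 oncofetal genes to 10 without a filter and 3 with the filter of 1 CPM. Counts by number of let-7 matches stayed within 1.5 times, but the balance of higher to lower did not always hold. With upper quartile factors it reversed at 0 matches (3092 higher, 4379 lower) and at 1 match (317 higher, 420 lower). It also reversed at 0 matches with a long 3′ UTR (467 higher, 488 lower). It did not reverse at 2 matches (48 higher, 37 lower) or at 3 or more (9 higher, 2 lower). No paired analysis was possible because the labels give no replicate numbers shared between the groups. Depth limits Lin28a, Lin28b, Igf2bp3 and, in lean tumours, Igf2bp1, which rest on few reads.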
